A study of Mus musculus with 64 samples.

Results

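The saccule was compared with the utricle and its neighbouring ampullae in mouse embryos at E14, E14.5 and E15, the last stages of a microarray series on the developing inner ear. The comparison rests on the 12 arrays of the 64 in the series whose titles name these tissues and stages: 6 of saccule and 6 of utricle combined with the 3 ampullae, with 2 arrays per tissue and stage. The saccule and utricle are the otolith organs of the vestibular system, whose hair cells sense linear acceleration and gravity through crystals, the otoconia, that lie on a gelatinous membrane. The ampullae hold the cristae, the sensory patches at the base of the semicircular canals that sense head rotation. In the otocyst, the saccule and the cochlear duct arise from the ventral part, and the utricle and canals from the dorsal part. Homeobox factors such as Dlx5, Hmx2 and Hmx3 are known regulators of the dorsal part, and Otx2 is one of the ventral part.

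All 12 arrays came from embryos of the CBA/J strain, with no treatment or engineered allele named in the labels, and each array measured a pool of 6 to 13 pieces of epithelium freed in dispase for 20 to 25 minutes. The replicates of a group were pools from different litters. Because utricle and ampullae were dissected as 1 piece, a gene of the cristae or of the ampullary wall cannot be told apart from a gene of the utricular macula here. Each array measured whole epithelium, sensory and non-sensory, so a lower level may reflect fewer cells of a type or less RNA per cell, and these cannot be told apart. The earlier arrays of the same tissues (E12.5, E13 and E13.5, 12 arrays) and the 6 cochlea arrays of E14 to E15 served for reference.

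Levels are given as log2(signal + 16) after quantile normalization. The deposited signal has a floor of 10, which is 4.70 on this scale, so a gene listed at 4.70 was at the floor. A difference is the level in saccule minus that in utricle with ampullae, taken within each stage and averaged over the 3 stages, with its standard error (SE) from a limma model of all 64 arrays. A gene passed the test, and is called higher or lower, with a Benjamini-Hochberg adjusted p under 0.05 over all 9352 genes and a difference of at least 1 log2 unit, which is a doubling on this scale. Levels of different genes are not compared with each other, since each comes from a probe set of its own.

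The arrays were alike in distribution, with median signals of 86.2 to 92.4 and 6.67 to 7.23 percent of probe sets at the floor. Replicates correlated across the 9352 tested genes at 0.9473 to 0.9902. The replicate 1 arrays of E14 stood apart from the other arrays of their tissue, with a mean correlation of 0.9169 in utricle and 0.9484 in saccule against 0.9564 to 0.9717 for the other 10 arrays. Inner ear epithelium was present on every array by its markers: Oc90, the main protein of otoconia, lay between 12.89 and 13.36 on all 12, and Otog, which encodes otogelin of the otolithic membrane, between 13.04 and 13.39. Gata3, a factor needed in the cochlear sensory epithelium, lay between 4.92 and 6.32 on the 12 arrays and between 8.94 and 9.80 in the cochlea. The hair cell factor Gfi1 lay between 9.28 and 11.04 on the 12 arrays and between 4.70 and 6.44 in the cochlea at the same stages.

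Of the 9352 genes, 276 passed the test (2.95 percent), 123 of them higher in saccule (1.32 percent) and 153 lower (1.64 percent). The difference had the same sign at E14, E14.5 and E15 in all 276. In 103 of the 123 higher genes every saccule array lay above every utricle array, and in 127 of the 153 lower genes every saccule array lay below. Over all genes, passed or not, the groups separated in this way in 273 upward (2.92 percent) and 349 downward (3.73 percent). A difference of at least 2 log2 units was reached by 25 higher and 40 lower genes, and of at least 3 by 10 and 11. The median difference of all genes was -0.01 and its median absolute size 0.19, with a median SE of 0.12. Without the size requirement or adjustment, 3628 genes (38.8 percent) had a limma p under 0.05. With both E14 replicate 1 arrays left out, 121 genes were higher and 149 lower.

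The genes with the largest excess in saccule included the homeobox factor Otx2 and the secreted proteins Wnt4 and Rspo2. Otx2, a homeobox factor of the ventral otocyst, had saccule levels of 8.71 to 9.31 with a median of 9.12. In utricle it was at the floor on 5 of 6 arrays and reached 5.53 on the sixth. The difference was 4.24 with an SE of 0.14, and no array of one tissue came near the other tissue. Wnt4, a secreted Wnt ligand, ranged from 8.88 to 9.96 in saccule (median 9.53) and from 5.28 to 6.60 in utricle (median 5.89), a difference of 3.52 with an SE of 0.16. Rspo2, a secreted protein that amplifies Wnt signalling, ranged from 7.87 to 8.49 in saccule and from 4.70 to 4.80 in utricle, at the floor on 4 of 6 utricle arrays, with a difference of 3.32 (SE 0.11). Both ligands separated the tissues on every array and were also above every cochlea array in saccule. Cochlea levels ran from 7.95 to 8.59 for Wnt4 and from 6.22 to 7.13 for Rspo2.

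**Figure D1:**
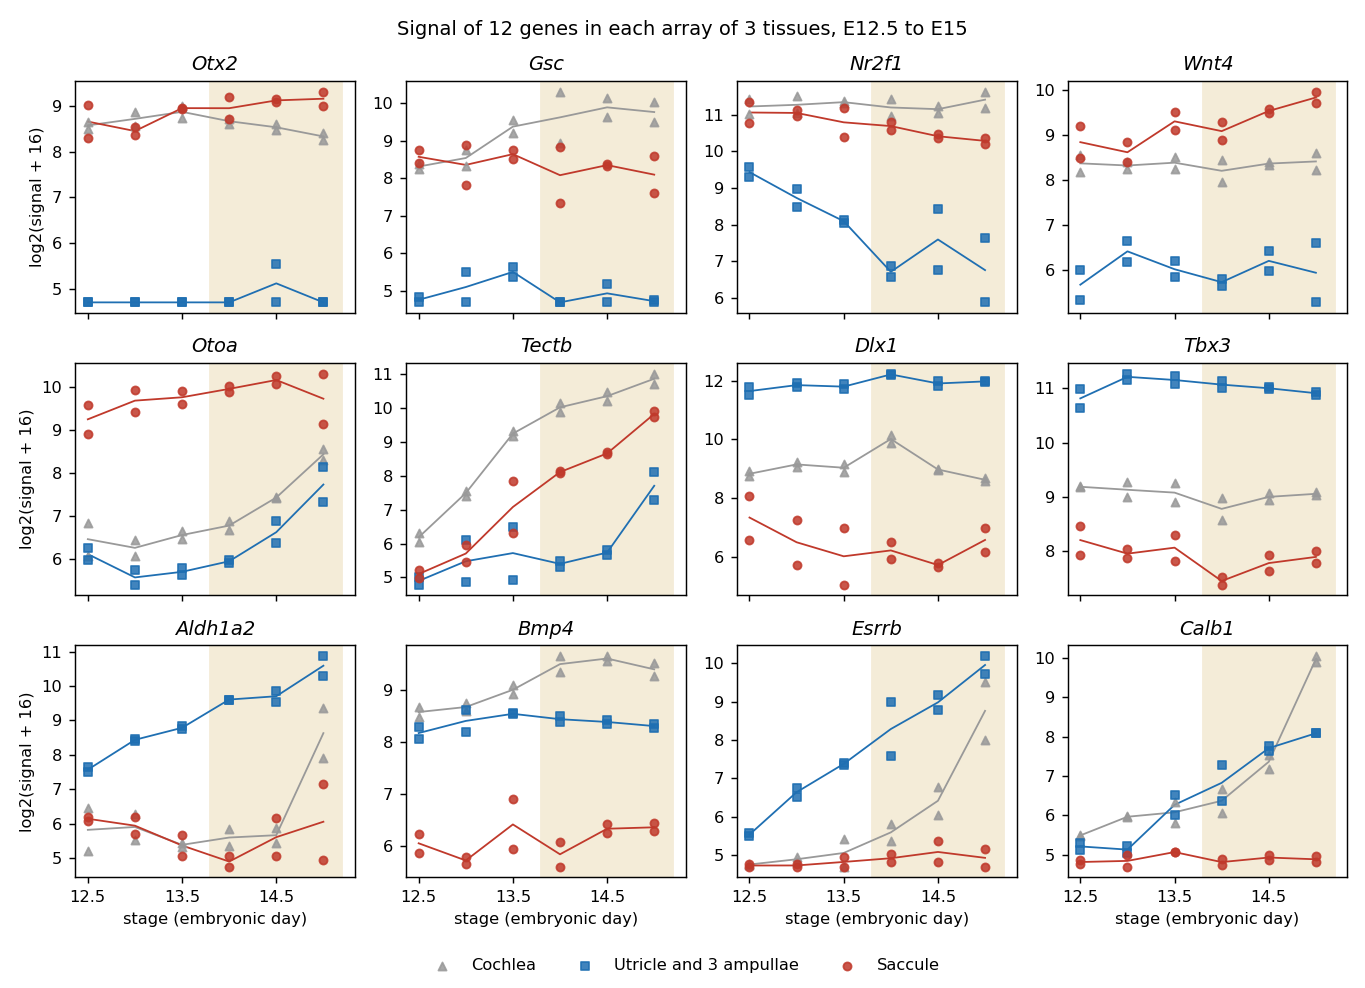
Levels of 12 genes on each array of saccule (circles), utricle with 3 ampullae (squares) and cochlea (triangles) against stage in embryonic days, on the log2(signal + 16) scale, with lines through the mean of the 2 arrays of a group and the stages E14 to E15 shaded. In the shaded stages Otx2, Gsc, Nr2f1, Wnt4, Otoa and Tectb are higher in saccule and Dlx1, Tbx3, Aldh1a2, Bmp4, Esrrb and Calb1 higher in utricle, with utricle at the floor of 4.70 for Otx2 on 5 of 6 arrays.

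Postn, Il33, Otoa and Crym were also among the 12 leading genes. Postn, which encodes the matrix protein periostin, ranged from 9.78 to 11.23 in saccule (median 10.18) and from 6.04 to 6.56 in utricle (median 6.21), a difference of 4.05 (SE 0.14). Il33, which encodes a nuclear cytokine of the interleukin-1 family, ranged from 9.70 to 10.60 in saccule (median 10.00) and from 5.41 to 7.20 in utricle (median 6.65), a difference of 3.64 (SE 0.13). In both genes the lowest saccule array stood more than 2 log2 units above the highest utricle array. Otoa encodes otoancorin, which attaches the acellular gels of the inner ear to non-sensory cells. Its levels were 9.15 to 10.31 in saccule (median 10.05) and 5.92 to 8.14 in utricle (median 6.63), with a difference of 3.18 (SE 0.17). Crym, which encodes the thyroid hormone-binding protein mu-crystallin, ranged from 9.18 to 10.31 in saccule (median 9.84) and from 5.67 to 7.01 in utricle (median 6.65), a difference of 3.29 (SE 0.12).

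The remaining leading saccule genes were Nr2f1, Gsc, Tacr3, Ddx25 and Fabp7. Nr2f1, which encodes the nuclear receptor COUP-TFI and is needed for normal growth of the cochlear duct, ranged from 10.20 to 10.80 in saccule and from 5.87 to 8.43 in utricle (difference 3.45, SE 0.20). Gsc, the homeobox gene goosecoid, ranged from 7.34 to 8.82 in saccule and was at the floor on 4 of 6 utricle arrays, with a highest utricle level of 5.18 (difference 3.38, SE 0.23). These were the 2 of the 12 leading genes whose saccule levels all lay below the cochlea, at 10.97 to 11.64 for Nr2f1 and 8.93 to 10.30 for Gsc. Tacr3, which encodes the neurokinin B receptor, differed by 3.01 (SE 0.13), but with no filter another probe set represented it and gave 0.33, which did not pass. Ddx25, which encodes a DEAD-box RNA helicase, ranged from 6.76 to 7.99 in saccule and was at the floor on all 6 utricle and all 6 cochlea arrays, so its difference of 2.84 is a lower bound. Fabp7, which encodes a fatty acid-binding protein typical of glia and neural progenitors, ranged from 10.64 to 11.21 in saccule and from 6.37 to 9.16 in utricle (difference 2.76, SE 0.34). Saccule and utricle arrays did not overlap for any of the 12 leading genes, and each passed at each of the 3 stages. The 12 were chosen by the size of this same difference, so the separation adds no support of its own.

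The largest difference of any called gene was a deficit in saccule. Dlx1, a distal-less homeobox gene, ranged from 5.66 to 7.00 in saccule (median 6.06) and from 11.81 to 12.23 in utricle (median 11.98), a difference of -5.84 (SE 0.33). Enpep, which encodes the membrane peptidase aminopeptidase A, ranged from 5.22 to 6.15 in saccule (median 5.65) and from 9.80 to 11.12 in utricle (median 10.43), a difference of -4.77 (SE 0.13). The tissues lay far apart in both genes. Tbx3, a T-box transcription factor, ranged from 7.38 to 8.00 in saccule (median 7.70) and from 10.88 to 11.13 in utricle (median 11.00), a difference of -3.29 (SE 0.12). Zfp503, which encodes a zinc finger transcriptional repressor, differed by -3.69 (SE 0.14). In each of Dlx1, Zfp503 and Tbx3 the cochlea arrays lay between the other tissues, below every utricle array and above every saccule array.

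Fn1, Timp3, Cldn8, Vit and Apobec2 were also among the 12 leading lower genes. Fn1, which encodes fibronectin, ranged from 9.24 to 9.66 in saccule (median 9.34) and from 12.10 to 12.78 in utricle (median 12.23), a difference of -2.96 (SE 0.10). Timp3, an inhibitor of metalloproteinases, differed by -3.39 (SE 0.11), and Cldn8, a tight junction claudin, by -3.02 (SE 0.14). Vit encodes vitrin, a matrix protein known in the inner ear. It was at the floor on 5 of 6 saccule arrays and on all 6 cochlea arrays, and ranged from 6.96 to 8.45 in utricle (difference -3.18, SE 0.11). Apobec2, of the cytidine deaminase family, differed by -3.69 (SE 0.23). As in the upward direction, the arrays of the tissues did not overlap for any of these 12 genes, and each passed at each stage. They too were chosen by the size of this difference.

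**Figure D2:**
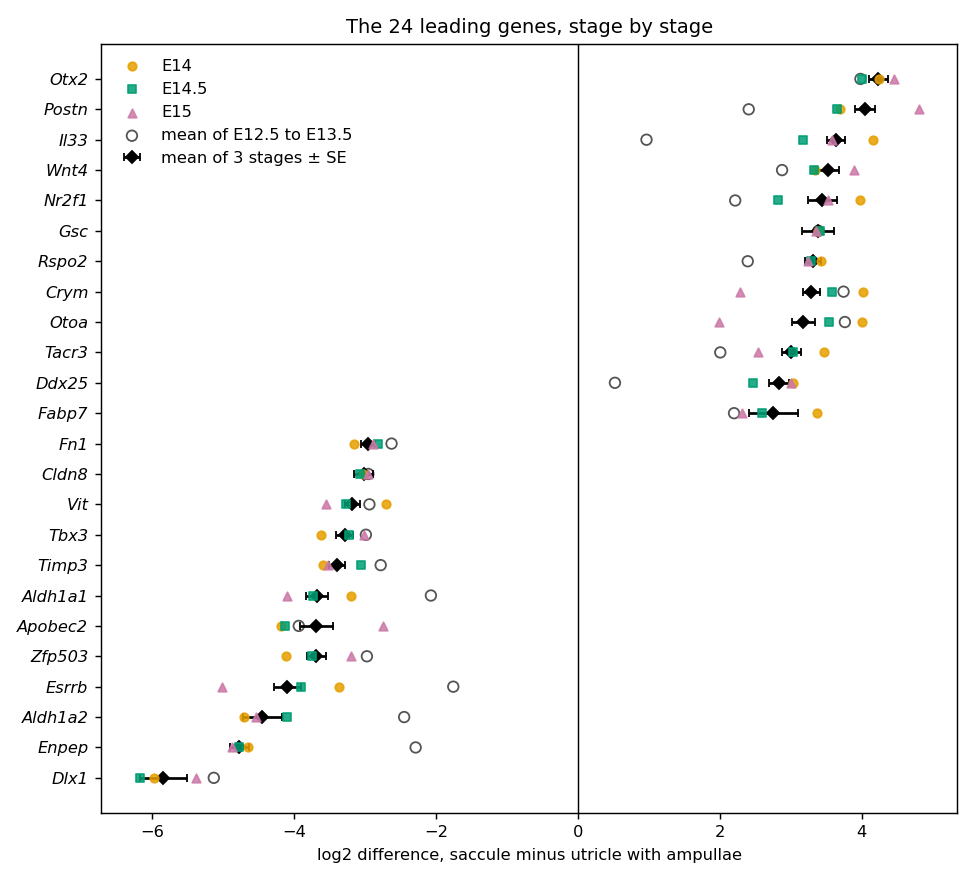
Difference between saccule and utricle with ampullae, in log2 units, for the 12 leading higher and 12 leading lower genes: diamonds with bars are the mean over 3 stages with its SE, filled symbols the single stages, and open circles the mean of E12.5 to E13.5. Every stage value of a gene lies on the same side of 0, from 4.24 for the mean of Otx2 down to -5.84 for that of Dlx1, and the open circles of Il33, Ddx25, Enpep and Esrrb lie well nearer to 0 than their late values.

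Regulators of the dorsal otocyst were lower in saccule where they differed. Of 21 measured genes on that list, 5 were lower and 0 higher, against 1.64 and 1.32 percent of all genes. The same shares of all genes apply to the counts of each list below. On the list 18 lay below 0, against 50.9 percent of all genes. The median difference was -0.47 against -0.01 for all genes. The list was drawn up with earlier results of these data known. Meis2, a homeobox cofactor, ranged from 5.77 to 6.63 in saccule and from 8.54 to 9.08 in utricle, a difference of -2.64 (SE 0.11). Meis1, of the same family, was at the floor on 5 of 6 saccule arrays and ranged from 6.79 to 7.64 in utricle (difference -2.48, SE 0.12). Tbx1, a T-box factor needed for inner ear morphogenesis, ranged from 7.17 to 8.51 in saccule and from 9.91 to 10.30 in utricle (difference -2.10, SE 0.19). Lmo4, a LIM-only factor required for the canals, was the fifth, at -1.71. The homeobox genes Hmx2, Hmx3 and Dlx5 did not pass. Hmx2 had a difference of -0.99 (SE 0.16), just short of 1, and passed with a pseudocount of 1, at -1.22, and on the values as deposited, at -1.02. Hmx3 and Dlx5 had differences of -0.14 and -0.20.

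Of 16 measured genes on the ventral and cochlear list, Otx2, Nr2f1 and Gsc were higher and Bmp2 was lower. Among all genes, 1.32 percent were higher and 1.64 percent lower. The list's median difference was 0.13. Bmp2, a bone morphogenetic protein needed for canal formation, ranged from 4.70 to 5.03 in saccule and from 6.27 to 7.10 in utricle (difference -1.95, SE 0.13). The cochlea, which has the ventral origin in common with the saccule, had a mean level nearer to saccule than to utricle in 55 of the 123 genes higher in saccule (44.7 percent) and in 88 of the 153 lower ones (57.5 percent). That is a minority of the higher genes and a majority of the lower ones. Over all 9352 genes the cochlea was nearer to saccule in 35.7 percent. Most of those genes differ little between saccule and utricle, so that share is not a like reference for called genes. A part of the ventral origin in these shares was not tested.

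**Figure D3:**
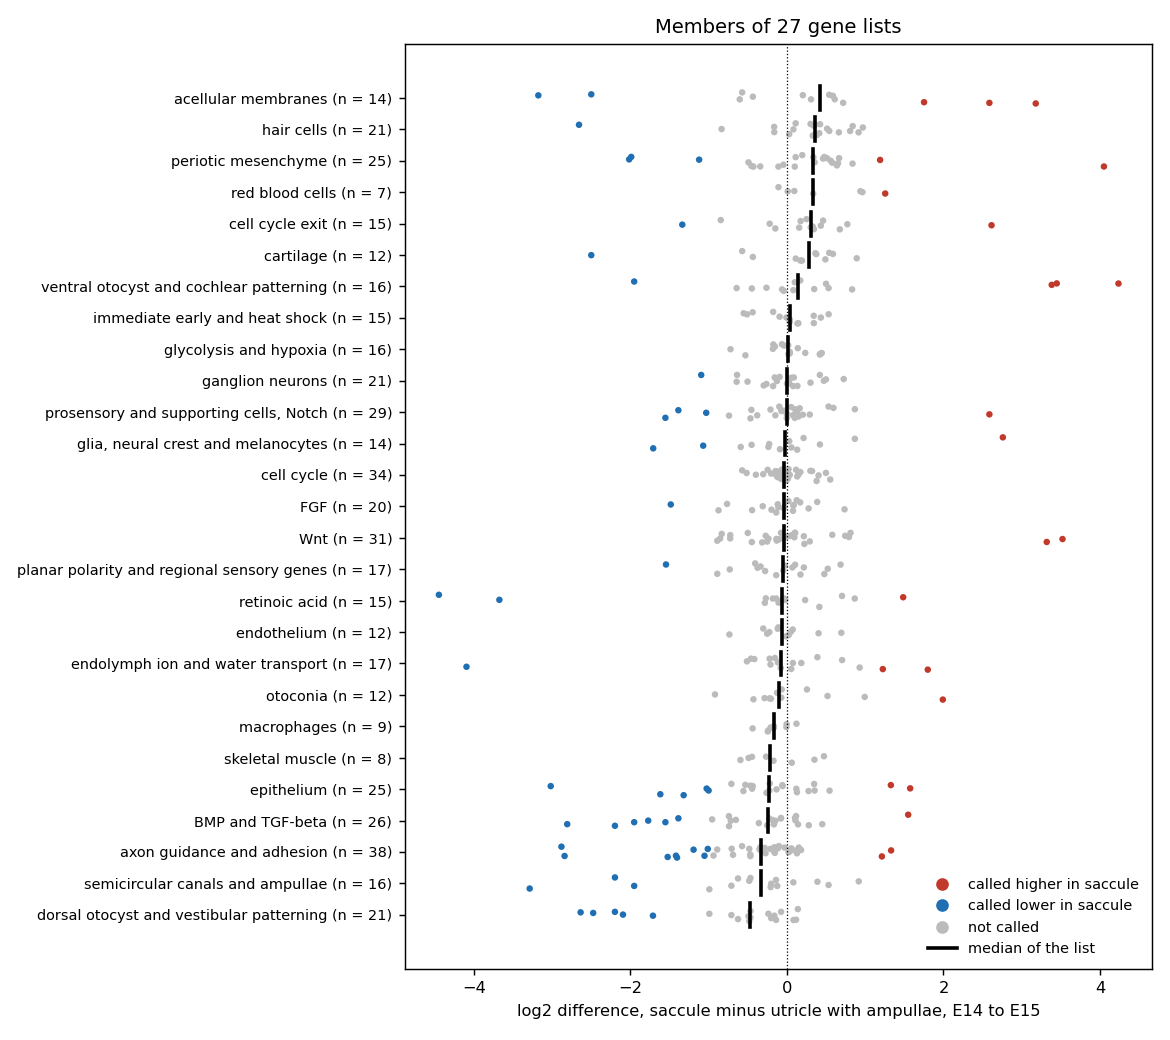
Difference between saccule and utricle with ampullae at E14 to E15 for every measured member of 27 gene lists, 1 point per gene in log2 units with a small vertical scatter for legibility, called members in colour and the median of each list as a bar. The 5 called members of the dorsal list are all below 0, the 2 of the Wnt list are above 0, and the cell cycle list has none.

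Genes that make retinoic acid, a vitamin A derivative that acts through nuclear receptors, differed between the organs by enzyme. Aldh1a2, the main retinoic acid-making enzyme of the embryo, ranged from 4.75 to 7.16 in saccule (median 5.05) and from 9.54 to 10.88 in utricle (median 9.74), a difference of -4.45 (SE 0.27). Aldh1a1, a related enzyme, ranged from 4.70 to 5.86 in saccule (median 5.27) and from 7.85 to 9.90 in utricle (median 8.78), a difference of -3.68 (SE 0.15). Both separated the tissues on every array. Aldh1a3, the third enzyme of the family, ranged from 11.60 to 12.53 in saccule and from 10.95 to 12.17 in utricle, which overlap, and its difference of 0.41 (SE 0.15) did not pass. Its other kept probe sets gave 0.75 (SE 0.15) and 0.64 (SE 0.10), also under 1 log2 unit. Rarb encodes retinoic acid receptor beta, a receptor whose own gene is a classic target of retinoic acid. It ranged from 7.89 to 8.69 in saccule (median 8.12) and from 6.35 to 7.22 in utricle (median 6.73), a difference of 1.48 (SE 0.15), opposite in sign to Aldh1a2 and Aldh1a1. Of 15 measured genes on the retinoic acid list, these 3 passed, 1 higher and 2 lower, and the list's median was -0.06.

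The promoter of Rarb is shown because it holds the direct repeat through which retinoic acid receptors are known to act on this gene. The window is that of the RefSeq start in GRCm38.p6, chr14:16575427-16575726 on the minus strand, from 250 bases before to 50 after the start, and the capitals mark a match to GTTCA repeated after 6 bases of any kind, at -52 to -37 from the start.
Rarb: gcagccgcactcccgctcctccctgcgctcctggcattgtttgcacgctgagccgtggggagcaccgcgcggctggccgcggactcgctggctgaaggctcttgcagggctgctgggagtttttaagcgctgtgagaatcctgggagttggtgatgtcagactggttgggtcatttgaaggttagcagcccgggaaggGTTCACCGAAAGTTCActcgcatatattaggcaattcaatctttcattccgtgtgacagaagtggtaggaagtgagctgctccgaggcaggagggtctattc
A match to this repeat, searched on both strands, stood in 25 of 32851 RefSeq promoters of this length (0.0761 percent). Among the 213 called genes with a promoter in the table, Rarb was the only one with a match. A match is a description of letters and does not show that a receptor binds there in these tissues. Of the other motifs searched on both strands, the MEIS core TGACAG stood in 19.2 percent of all promoters, 23.9 percent of those of the higher genes and 19.8 percent of those of the lower ones. The T-box core AGGTGTGA stood in 1.28 percent of all promoters, in 1 of 92 higher and in 2 of 121 lower genes.

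Of 26 measured genes on the BMP and TGF-beta list, which holds ligands, receptors and targets of bone morphogenetic protein (BMP) signalling, 6 were lower, 1 was higher and 19 did not pass. Over all genes, 1.64 percent were lower and 1.32 percent higher. Bmp4, which marks the cristae and parts of the maculae, ranged from 5.61 to 6.44 in saccule (median 6.27) and from 8.27 to 8.51 in utricle (median 8.37), a difference of -2.20 (SE 0.13). Bmp6, another ligand, ranged from 8.50 to 8.83 in saccule and from 11.22 to 11.72 in utricle, a difference of -2.81 (SE 0.09). The 3 ligands Bmp2, Bmp4 and Bmp6 each separated the tissues without overlap, as did 127 of all 153 lower genes. They passed the test on these same arrays, so the separation adds no support of its own. Id2 and Id3, inhibitors of basic helix-loop-helix factors and common BMP targets, differed by -1.39 (SE 0.13) and -1.55 (SE 0.11). Id3 ranged from 9.01 to 9.91 in saccule and from 9.91 to 11.52 in utricle, so the groups met at the edge. The 3 kept probe sets of Id2 agreed in sign, with differences of -0.41 to -1.39. Bambi, a decoy receptor induced by BMPs, differed by -1.77 (SE 0.37), with stage values of -2.52, -0.48 and -2.32. The higher gene was Tgfbi, which encodes a TGF-beta-induced matrix protein, at 1.55. The ligands Bmp5 and Bmp7 and the target genes Id1 and Id4 were among those that did not pass, with differences of 0.14, 0.12, -0.74 and -0.96. The list's median was -0.24, with 19 members below 0, against 50.9 percent of all genes.

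On the Wnt list, Wnt4 and Rspo2 were higher, 0 of 31 measured genes were lower, and the median was -0.04. On the FGF list of 20 measured genes, Fgf9 was lower and 0 were higher. Fgf9, a ligand that signals from otic epithelium to mesenchyme, ranged from 7.25 to 8.06 in saccule (median 7.35) and from 8.66 to 9.61 in utricle (median 9.00), a difference of -1.48 (SE 0.12). The canals and ampullae list had 3 lower genes of 16 measured, Tbx3, Bmp4 and Bmp2, and 0 higher. The shares of all genes were 1.64 percent lower and 1.32 percent higher, and the list's median was -0.34. On the planar polarity and regional list of 17 measured genes, Fjx1, a four-jointed family gene of the Fat and Dachsous pathway, was lower (-1.55, SE 0.14) and 0 were higher.

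Genes of the gels that cover sensory patches differed in both directions. Tectb encodes beta-tectorin, a protein of the tectorial membrane and of the otolithic membranes. It ranged from 8.08 to 9.93 in saccule (median 8.66) and from 5.31 to 8.12 in utricle (median 5.73), a difference of 2.59 (SE 0.20), with the highest utricle array just above the lowest saccule array. Matn4, which encodes the matrix protein matrilin-4, ranged from 9.16 to 9.96 in saccule (median 9.56) and from 11.28 to 12.80 in utricle (median 12.12), a difference of -2.50 (SE 0.25). Of 14 measured genes on the list, Otoa, Tectb and Tecta (1.75), which encodes alpha-tectorin, were higher and Vit and Matn4 were lower. Shares of all genes were 1.32 percent higher and 1.64 percent lower, and the list's median was 0.42. On the otoconia list of 12 measured genes, Car12, a membrane carbonic anhydrase, was higher (1.99, SE 0.16) and 0 were lower. Car12 ranged from 7.90 to 9.30 in saccule and from 6.06 to 7.39 in utricle. Oc90 had a difference of -0.21 (SE 0.13) and Otog of 0.20 (SE 0.11), neither of which passed. Both genes lay near the highest signals on the arrays, so these values do not show equal amounts of RNA.

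The Tectb promoter is shown as an example of a higher gene with the core letters of the OTX binding motif. The window is chr19:55180476-55180775 on the plus strand of GRCm38.p6, from RefSeq, and the capitals mark TAATCC read on the reverse strand, at -128 to -123 from the start.
Tectb: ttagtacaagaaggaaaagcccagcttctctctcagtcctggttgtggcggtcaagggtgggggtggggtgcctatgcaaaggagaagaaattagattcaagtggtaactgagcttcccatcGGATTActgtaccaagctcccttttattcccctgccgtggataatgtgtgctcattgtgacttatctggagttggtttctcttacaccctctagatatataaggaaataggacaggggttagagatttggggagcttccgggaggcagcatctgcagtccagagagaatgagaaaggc
The 6 letters TAATCC, searched on both strands, stood in 7.06 percent of all 32851 promoters, in 9 of 92 genes higher in saccule with a promoter (9.78 percent) and in 6 of 121 lower genes (4.96 percent). Among all tested genes the share was 6.77 percent. Otx2 was the only one of the leading genes with a match. These shares are descriptions, and a link between Otx2 and Tectb was not tested. At E12.5 to E13.5 the difference of Otx2 was 3.99 and that of Tectb 0.60.

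Hair cell genes had mostly small positive differences. Of 21 measured, 17 had a difference above 0, against 48.9 percent of all genes, with a list median of 0.36. But 0 were called higher and Calb1 was called lower. At any size, 11 of the 21 had a limma adjusted p under 0.05 and a difference above 0, against 14.0 percent of all genes. Gfi1, a zinc finger factor needed for hair cell survival, ranged from 10.12 to 11.04 in saccule (median 10.38) and from 9.28 to 10.18 in utricle (median 9.55), a difference of 0.92 (SE 0.12). It passed at 1.01 only without utricle replicate 1 of E15 among the single-array removals. Calb2, the hair cell and neuron calcium-binding protein calretinin, had a difference of 0.84 (SE 0.12). Atoh1, the factor that specifies hair cells, had one of 0.41 (SE 0.11), the hair cell myosin Myo7a 0.51 (SE 0.17) and the hair cell factor Pou4f3 0.33 (SE 0.17). Sox2, the prosensory and supporting cell factor, had 0.53 (SE 0.09). None of these 6 genes reached 1 log2 unit.

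Calb1, which encodes the calcium buffer calbindin, went the other way. It ranged from 4.74 to 4.99 in saccule (median 4.89) and from 6.37 to 8.09 in utricle (median 7.71), a difference of -2.66 (SE 0.13). The saccule values lay at or near the floor on all 6 arrays. On the prosensory, supporting cell and Notch list of 29 measured genes, Tectb was higher and Id3, Id2 and Notch2 were lower, with a median near 0. Notch2, a Notch receptor, differed by -1.03 (SE 0.24), but its other kept probe set gave -0.06.

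On the list of endolymph ion and water transport, 2 of 17 measured genes were higher, 1 was lower and 14 did not pass. Among all genes, 1.32 percent were higher and 1.64 percent lower. Endolymph is the potassium-rich fluid that bathes the hair bundles. The lower gene, Esrrb, encodes a nuclear receptor needed by the endolymph-producing cells and not a transporter. Its levels were 4.70 to 5.36 in saccule (median 4.92) and 7.57 to 10.19 in utricle (median 9.09), a difference of -4.10 (SE 0.19). Aqp5, a water channel, was higher, at 7.12 to 8.60 in saccule (median 8.12) and 4.91 to 7.11 in utricle (median 6.39), a difference of 1.80 (SE 0.20). Atp1b1, the beta 1 subunit of the sodium pump, ranged from 9.70 to 10.59 in saccule and from 8.58 to 9.31 in utricle (difference 1.22, SE 0.16), and its 4 kept probe sets agreed in sign. The arrays of these 3 genes did not overlap between the tissues, as in 103 of all 123 higher and 127 of all 153 lower genes. They passed on the same arrays, so this adds no support of its own.

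Of 38 measured axon guidance and adhesion genes, 8 were lower, 2 were higher and 28 did not pass. Over all genes, 1.64 percent were lower and 1.32 percent higher. In all, 29 lay below 0, against 50.9 percent of all genes, and the median was -0.33. Unc5b, a netrin receptor, ranged from 8.19 to 9.15 in saccule (median 8.73) and from 11.06 to 12.12 in utricle (median 11.39), a difference of -2.88 (SE 0.12). Slit3, a secreted guidance cue, ranged from 4.70 to 5.53 in saccule (median 5.09) and from 7.65 to 8.31 in utricle (median 7.90), a difference of -2.84 (SE 0.10). The semaphorin receptor Nrp2 (-1.52, SE 0.20) and the netrin receptor Unc5c (-1.42, SE 0.13) were also lower, though the other kept probe set of Unc5c gave -0.63. The 2 higher genes were the cadherin Cdh4, at 1.33, and the ephrin receptor Epha7, at 1.21.

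None of the 34 measured cell cycle genes passed, and their differences ran from -0.57 to 0.55. On the list of 15 genes of cell cycle exit, Cdkn2b, which encodes the cyclin-dependent kinase inhibitor p15, ranged from 7.76 to 8.35 in saccule (median 7.92) and from 5.19 to 5.81 in utricle (median 5.34), a difference of 2.61 (SE 0.16). Gadd45b, a stress and growth arrest gene, was lower at -1.34, but 1 of its 3 kept probe sets gave 0.61. On the epithelium list of 25, Krt23 (1.57, SE 0.14) and Wfdc2 (1.33, SE 0.11) were higher. Cldn8, Krt7 (-1.62, SE 0.14), Cldn4, Krt8 and Esrp2 were lower, and the list's median was -0.22. Over all genes, 1.32 percent were higher and 1.64 percent lower.

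Markers of other tissues were read on the same arrays, and their part in the differences above was not tested. Of 25 measured genes of periotic mesenchyme, Postn and Col3a1 (1.19, SE 0.16) were higher. Dcn (-2.02, SE 0.15), Lum (-1.99, SE 0.22) and Vim were lower. The list had a median of 0.34 and 16 members above 0, against 48.9 percent of all genes. At E12.5 to E13.5, 9 of its members were higher and 2 lower. The other kept probe set of Col3a1 gave 0.45. The summed signal of the list was 4313 to 7347 in saccule and 3840 to 5383 in utricle. Dcn and Lum encode small leucine-rich proteoglycans of connective tissue. Of 7 measured red blood cell genes, Hbb-y, an embryonic globin, was higher (1.26, SE 0.29), with levels of 5.26 to 10.56 in saccule and 4.94 to 8.95 in utricle. This list had a median of 0.335 and 6 members above 0, and at E12.5 to E13.5, 4 of its members were higher and 0 lower. Its summed signals were 2149 to 4946 in saccule and 1032 to 3166 in utricle. Without utricle replicate 1 of E14 the difference of Hbb-y was 0.89, and without saccule replicate 1 of E15 it was 0.98, under the size required.

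On the list of glia, neural crest and melanocytes, Fabp7 was higher and Ngfr (-1.71, SE 0.15) and Mitf (-1.07, SE 0.13) were lower of 14 measured. The list had a median of -0.03, with 7 members above 0 and 7 below. Its summed signal was 6343 to 7683 in saccule and 4753 to 5386 in utricle. A sum weighs genes of high signal most, and Fabp7 had mean levels of 11.00 in saccule and 8.24 in utricle. Ngfr, the low-affinity neurotrophin receptor, gave -0.24 with its other kept probe set. Among 21 ganglion neuron genes, Ret, a receptor tyrosine kinase, was lower (-1.10, SE 0.11) and 0 were higher, with summed signals of 6038 to 8449 and 6337 to 7259. Cartilage markers had 1 lower gene of 12 measured, Matn4, which is also on the membrane list. None of 12 endothelial, 9 macrophage or 8 skeletal muscle genes passed by the limma test. None of 15 immediate early and heat shock genes or 16 genes of glycolysis and hypoxia passed either, and no member of any list was at the floor on all 12 arrays.

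The single stages gave 575 called genes at E14 (6.15 percent), of which 311 were higher (3.33 percent) and 264 lower (2.82 percent). At E14.5 there were 286 (3.06 percent), 127 higher (1.36 percent) and 159 lower (1.7 percent). At E15 there were 274 (2.93 percent), 131 higher (1.4 percent) and 143 lower (1.53 percent). At all 3 stages and in 1 direction, 164 genes were called, 67 higher and 97 lower. At E14 alone, 324 genes were called. The E14 count was 1007 without utricle replicate 2 of E14, and 276 with both E14 replicate 1 arrays left out, so it rests on these arrays. The F test of a change among the 3 stages called 5 genes (0.0535 percent): Crym, Cltrn, Sntb1, Art3 and Cd248. It called 553 without utricle replicate 2 of E14, 17 without saccule replicate 2 of E14, 7 without saccule replicate 1 of E15 and 6 without utricle replicate 2 of E14.5. With any other single array of the 12 left out it called 0 to 3. The 0 counts were those without utricle replicate 1 of E14 (540 genes at an unadjusted p under 0.05) and without utricle replicate 1 of E15 (775).

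Crym had stage differences of 4.01, 3.59 and 2.28 at E14, E14.5 and E15, so saccule exceeded utricle throughout. Cltrn, which encodes collectrin, had 1.39, 1.85 and 2.80, with utricle at the floor on 5 of 6 arrays. Art3, an ecto-ADP-ribosyltransferase family gene, had 2.67, 1.92 and 0.75. Sntb1, the adaptor beta 1 syntrophin, had 2.00, 0.23 and 0.90. Cd248, which encodes the stromal protein endosialin, had -1.41, 0.38 and 0.34 and did not pass over the 3 stages together. In Cd248 the E14 value is the one that stands apart, and E14 is the stage whose replicate 1 arrays differ from the rest.

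Most of the differences were already present at E12.5 to E13.5. At those stages 283 genes passed (3.03 percent), 136 higher (1.45 percent) and 147 lower (1.57 percent). Of these, 175 also passed in the same direction at E14 to E15, which is 63.4 percent of the late and 61.8 percent of the early calls, and 0 passed in opposite directions. The 2 comparisons share no array. Among the leading genes, 10 of 12 higher and all 12 lower ones passed early as well, and the exceptions were Il33 and Ddx25. The early differences were 3.99 for Otx2, 3.39 for Gsc, 3.75 for Crym, -5.13 for Dlx1 and -2.99 for Tbx3.

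The change of the difference from early to late passed in 58 genes (0.62 percent), 27 towards saccule (0.289 percent) and 31 towards utricle (0.331 percent). Of the 58, 26 had a larger difference late in the same direction, 14 a smaller one, and 18 a difference of the other sign. Il33 went from 0.97 to 3.64, a change of 2.67 (limma adjusted p = 5.26e-13). Ddx25 went from 0.52 to 2.84, Tectb from 0.60 to 2.59, and Postn from 2.41 to 4.05. Otoa had differences of 3.77 early and 3.18 late, and its change did not pass. On the utricle side, Enpep went from -2.29 to -4.77, Esrrb from -1.76 to -4.10, Aldh1a2 from -2.45 to -4.45, Aldh1a1 from -2.07 to -3.68, Calb1 from -0.63 to -2.66 and Slit3 from -1.53 to -2.84. Both retinoic acid-making enzymes with a deficit in saccule thus had a larger one late. Matn4 went from 0.35 to -2.50, a change of -2.85 (SE 0.36).

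Cars, Adamts5 and Art3 changed in other ways. The cysteinyl-tRNA synthetase gene Cars went from 3.75 to 1.40, but its other kept probe set gave a late difference of -0.04. Adamts5, an aggrecan-cleaving protease, went from -0.66 to 1.67, and its other kept probe set gave 0.46 late. Art3 went from 3.10 to 1.78.

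**Figure D4:**
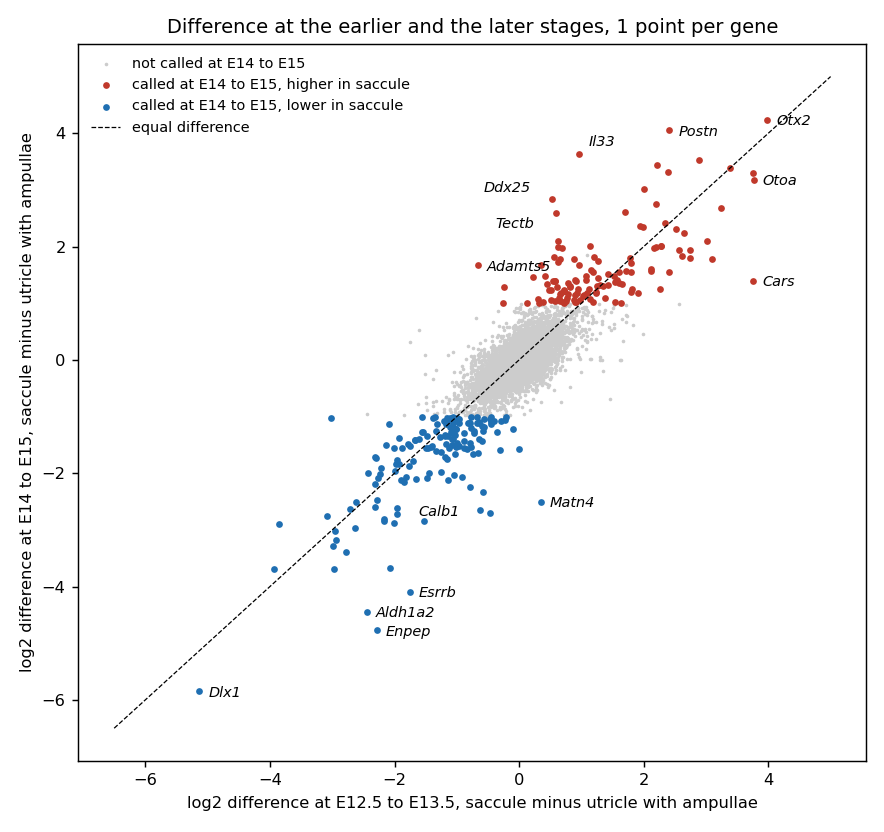
Difference between saccule and utricle with ampullae at E14 to E15 (vertical) against that at E12.5 to E13.5 (horizontal), both in log2 units, for all 9352 genes, with genes called at E14 to E15 in colour and a dashed line of equal difference. Dlx1 and Otx2 lie near the line with large differences at both times, Enpep, Esrrb and Il33 lie away from it with larger late differences, and Matn4 goes from 0.35 to -2.50.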

How the data were processed

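The 12 arrays are Affymetrix expression arrays of biotin-labelled cRNA, 1 per pool. The deposited values are linear intensities, 1 per probe set. The authors used MAS5 to make them, as the submitters' processing notes list, with version and scaling target not given in the sources used here. Of 22626 probe sets, 20380 have 1 gene symbol in the platform annotation, 691 have several and 1555 have none. Trimmed means of the 64 arrays spanned a 1.58-fold range, so the arrays were quantile normalized. Signals were taken as log2(signal + 16). A probe set entered the tests if it reached the array median on 2 or more of the 64 arrays (15337 did), and the one with the highest mean stood for each of 9352 genes.

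A linear model with 32 groups and 32 residual degrees of freedom was fitted with limma 3.58.1 in R 4.3.3, with variances moderated along a mean trend. Contrasts gave the 3 within-stage differences, their mean, an F test among stages and the change from E12.5 to E13.5. The number of arrays limits the precision. Motifs were searched in RefSeq promoters, which 213 of the 276 called genes have in the table.

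The genes named are the 12 leading in each direction, up to 4 called members of each of 27 lists, a panel of 22 genes of which 16 are measured, and the leading genes for change. Members and lists were chosen with earlier results of these data known. Lmo4, Tecta, Tgfbi, Bmp5, Bmp7, Id1, Id4, Cdh4, Epha7, Cldn4, Krt8, Esrp2, Vim and those under "Other observations" were named after their values were seen. The fitting script was tested on simulated data. Alternatives were other pseudocounts, filters, scaling, probe sets, array weights, a replicate block, fewer arrays and each array left out.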

Additional observations from a re-analysis of the deposited data

Results flagged for a closer look

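In 16 genes the difference between saccule and utricle with ampullae changed between E12.5 to E13.5 and E14 to E15 by the limma test of the change, among the genes named. On the saccule side the gap grew by 2.67 for Il33, 2.32 for Ddx25, 1.99 for Tectb, 1.64 for Postn, 1.23 for Nr2f1 and 1.00 for Tacr3, on the log2(signal + 16) scale. Adamts5 changed by 2.34, from below 0 early to above 0 late. On the utricle side the changes were -2.49 for Enpep, -2.34 for Esrrb, -2.03 for Calb1, -2.0 for Aldh1a2, -1.60 for Aldh1a1 and -1.31 for Slit3. Matn4 had the largest change, -2.85, from an early difference of 0.35 that did not pass. Cars changed by -2.36 and Art3 by -1.32, both from a larger excess in saccule to a smaller one.

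Among E14, E14.5 and E15 the difference changed in 5 genes by the limma F test, with F statistics of 20.2 for Crym (adjusted p = 0.00958), 17.8 for Cltrn (adjusted p = 0.0157), 16.1 for Sntb1 (adjusted p = 0.0260), 15.3 for Art3 (adjusted p = 0.0300) and 14.8 for Cd248 (adjusted p = 0.0326). The gap narrowed from E14 to E15 in Crym and Art3 and widened in Cltrn. The count of 5 rests on single arrays, as the values by array removed show.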

How the results depend on the processing

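Under the alternatives that kept 1 probe set per gene, the 276 called genes were tested again, and 179 (64.9 percent, pseudocount 64) to 276 passed in the same direction; the filter of 16 arrays kept 233 of them, and all 233 passed. With every probe set tested alone, 172 probe sets were higher and 227 lower. A pseudocount of 64, which shrinks low signals, gave 76 higher genes, 335 at E14, 190 at E14.5, 35 for the change from early to late and 13 for the F test among stages. That F test gave 1 gene with a pseudocount of 1, 8 with no filter and 3 with the filter of 16 arrays. It gave 0 with only the arrays of the comparison (713 at an unadjusted p under 0.05 by limma), and 0 with both E14 replicate 1 arrays left out (329), an alternative chosen after seeing the data. At E14, every probe set tested alone gave 877, only the arrays of the comparison 69, and the removal of both E14 replicate 1 arrays 276. The causes were not tested. Left out 1 at a time, arrays gave 113 to 143 higher and 134 to 182 lower genes, 492 to 1007 at E14, 232 to 271 at E14.5, 224 to 331 at E15, 53 to 71 for the change and 0 to 553 for the F test. With an array left out, the spread of its lone partner is taken from the other groups.

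With a replicate block in the fit of all 64 arrays the counts were 124 higher and 153 lower, all 276 calls remained, and the F test gave 9 genes; with the block and only the arrays of the comparison the F test gave 0 (831 at an unadjusted p under 0.05). The replicate numbers were not taken as pairs: deviations of same-numbered saccule and utricle arrays correlated at 0.47 at E14, 0.13 at E14.5 and -0.34 at E15, and at 0.32, 0.50 and 0.28 at E12.5, E13 and E13.5, so they were above 0.1 at 5 of 6 stages.

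Of 1781 alternative values of the 78 named genes, 1747 kept their call and direction, 21 lost their call, 10 gained it, 2 without a call moved beyond the spread, and 1 reversed. The reversal was Cars with a pseudocount of 1, at -0.048, where another probe set represents the gene. Lost calls included Notch2, Ret, Mitf, Col3a1 and Sntb1 with a pseudocount of 64, and Tacr3 with no filter (0.33, another probe set). Values at the floor on 4 or more arrays of 1 tissue bound differences of Otx2, Gsc, Rspo2, Ddx25, Cltrn, Vit and Meis1 from below.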

Other observations

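Other genes with large differences lie outside the lists and were picked after their values were seen. Higher in saccule were Lrig1, a membrane protein that restrains growth factor receptors (2.69, SE 0.11), Cxcl12, a chemokine (2.41, SE 0.10), Mme, a membrane peptidase (2.35, SE 0.15), Cd83, a membrane protein known from dendritic cells (2.34, SE 0.12), and Shisa2, which restrains Wnt and FGF receptors (2.32, SE 0.14). Transcription factors among them were Sox21 (2.09, SE 0.19) and Six2 (1.93, SE 0.15). Smoc1, a secreted calcium-binding protein, differed by 1.95 (SE 0.12). Slc17a6, a vesicular glutamate transporter, differed by 2.00 (SE 0.11) with utricle at a mean of 4.70, and by 0.62 at E12.5 to E13.5, a change of 1.38.

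Lower in saccule were Kcnd2, a potassium channel (-2.90, SE 0.20), Lrp2, the endocytic receptor megalin (-2.84, SE 0.10), Mb, which encodes myoglobin (-2.73, SE 0.24), and Aldh1a7, an aldehyde dehydrogenase close in sequence to Aldh1a1 (-2.62, SE 0.12), so signals of that pair may not be fully separate on the array. Penk, which encodes the precursor of enkephalins, differed by -2.70 (SE 0.17) at E14 to E15 and by -0.46 at E12.5 to E13.5, a change of -2.23. Saccule and utricle arrays did not overlap for any of these 14 genes, which were picked for large differences on the same arrays. Over all genes the groups separated upward in 2.92 percent and downward in 3.73 percent.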
